A study of Mus musculus with 20 samples.

Results

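The corticosterone response that remained while ACBP was neutralized was read from 10 livers, those of 5 mice given anti-ACBP antibody and corticosterone (αACBP + CORT) and 5 given the same antibody and vehicle (αACBP + Vehicle). They were chosen by their treatment labels alone, from 20 livers sequenced in 4 groups of 5, and the other 10 livers came from mice given an IgG2a isotype control antibody with CORT or vehicle. Every gene of the count table was considered, and the 16071 of 48440 genes that passed a filter on low counts were tested. All mice were wild-type C57BL/6 females (C57BL/6J in the study's methods) 8 weeks of age at the start. CORT was given in the drinking water at 100 µg per ml for 5 weeks, its vehicle was the ethanol-containing water without CORT, and antibodies were injected intraperitoneally at 5 mg per kg. All 10 mice compared here therefore carried the same neutralizing antibody, which binds the protein outside cells and leaves the Dbi gene intact. The protein level of ACBP was not part of these data.

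Corticosterone is the main glucocorticoid of rodents. It binds the glucocorticoid receptor, which moves to the nucleus and raises or lowers transcription near its binding sites, and in the liver chronic exposure is known to favour glucose output, amino acid breakdown, triglyceride storage and suppression of immune genes. ACBP, acyl-CoA-binding protein, is encoded by Dbi; inside cells it carries acyl-CoA esters, and outside cells it acts as a hormone-like factor that stimulates appetite and fat storage.

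Total counts on genes ranged from 15570200 to 18742800 per liver in these 10 libraries, and the difference of the means, αACBP + CORT minus αACBP + Vehicle, was -189243 counts (two-sided exact permutation test, p = 0.778, the smallest possible being 0.00794). A count of 3 corresponded to 0.160 to 0.193 CPM, a gene's counts scaled to a fixed library total. This range is before the TMM scaling that was applied to all CPM values below. Hepatocyte markers were abundant in every liver (summed level 45508 to 105670 CPM in vehicle and 88189 to 122707 CPM in CORT livers). A library in each group stood apart. In αACBP + Vehicle replicate 5 the 20 most abundant genes took 14% of counts against 21.1 to 24.1% in the other vehicle livers, and it had the lowest sample quality weight of all 20 libraries (0.236). In αACBP + CORT replicate 5 mitochondrial genes took 9.03% of counts against 4.11 to 4.85% in the other CORT livers. The share was 3.94 to 8.25% in the αACBP + Vehicle livers and 8.96% in Isotype + Vehicle replicate 4. The log2 CPM of αACBP + CORT replicate 5 correlated with the αACBP + Vehicle livers at a mean of 0.958 (0.944 to 0.955 for the other 4). With its own group the mean was 0.962 (0.969 to 0.973 for the other 4). The counts of changed genes below are therefore also given without these livers. For some single genes the fold change is given without αACBP + CORT replicate 5, or the livers are named without which the call was lost.

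Under the antibody, CORT raised G0s2, an inhibitor of triglyceride breakdown, Insig2, a regulator of sterol synthesis, and Ppp1r3c, a glycogen-targeting subunit, and lowered Gys2, the liver glycogen synthase, Slc38a3, a glutamine transporter, and Sort1, a sorting receptor. In all, 27 genes rose (0.168% of those tested) and 7 fell (0.0436%) at a Benjamini-Hochberg adjusted p of at most 0.05 in edgeR's quasi-likelihood test and a log2 fold change of at least 1 in size. By the same limits DESeq2 gave 66 higher and 46 lower and voom 66 higher and 89 lower, so the upward balance was not kept by voom. Without a fold limit 34 rose (0.212%) and 15 fell (0.0933%). The number hung on single livers. Leaving out αACBP + CORT replicate 5 gave 153 genes (86 higher and 67 lower, 0.93% of 16454 tested), and all 34 were among them. Leaving out any other liver gave 5 to 51, the lowest being 5 without αACBP + Vehicle replicate 3, 6 without αACBP + CORT replicate 1, 8 without αACBP + CORT replicate 2 and 11 without αACBP + Vehicle replicate 5. Without vehicle replicate 1 there were 13 and without CORT replicate 4 there were 14. Leaving out both replicate 5 livers together, an alternative added after the data were seen, gave 104 genes, 62 higher and 42 lower, with all 34 again among them.

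**Figure D1:**
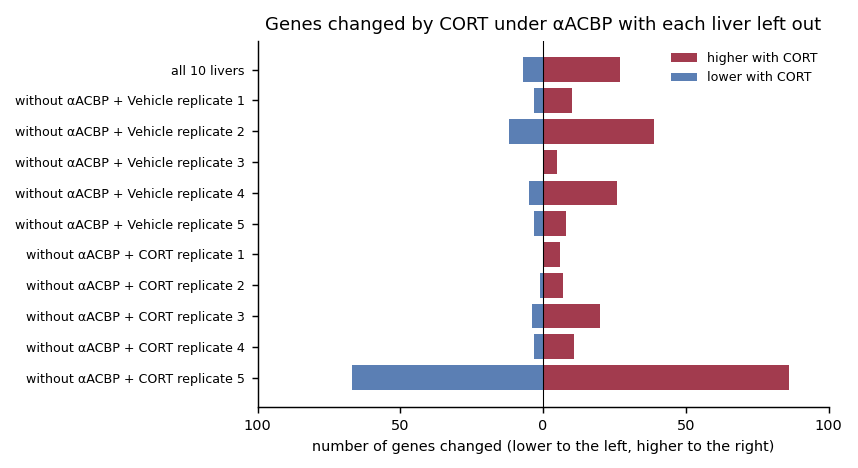
Number of genes changed by CORT under αACBP (adjusted p of at most 0.05, log2 fold change of at least 1 in size) with all 10 livers and with each liver left out in turn; bars give genes higher and lower with CORT. The count was 34 with all livers and 153 without αACBP + CORT replicate 5, and between 5 and 51 without any other liver.

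Of the 34 genes, 18 had no overlap between the CORT and vehicle livers, where 441 of all genes tested (2.74%) had none. αACBP + CORT replicate 5 was the CORT liver nearest to the vehicle mean in 32 of the 34. Leaving out the CORT liver nearest to vehicle widens a difference by construction, so calls gained below without it are no independent support. By the form of their names alone, 8 of the 34 were counted as predicted genes or pseudogenes. Of these, Gm4952, Gm14420 and BC048546 are annotated as protein-coding. Of the 34, 2 averaged under 1 CPM. Of 25 named genes that passed the adjusted p, 4 kept it whichever of the 10 livers was left out: G0s2, Id3, Clpx and Nfil3. The 25 were named by rule, except Ddc and Scp2, which were added by hand.

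G0s2 (ENSMUSG00000009633; chromosome 1, 192949563 to 192956177, minus strand, GRCm39) encodes an inhibitor of adipose triglyceride lipase that slows the emptying of lipid droplets. It stood at 58.9, 68.5, 38.1, 92.8 and 95.4 CPM in the vehicle livers and at 543, 293, 340, 238 and 109 CPM in the CORT livers. Every CORT liver lay above every vehicle liver, replicate 5 being the lowest. The means were 70.7 ± 24.0 and 305 ± 159 CPM (SD, n = 5 each), a log2 fold change of 2.11 (SE 0.33, edgeR adjusted p = 0.0101). Under isotype antibody it also rose, from 101 to 294 CPM (log2 fold change 1.55, adjusted p = 0.0095).

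Insig2 (ENSMUSG00000003721; chromosome 1, 121181760 to 121260400, minus strand, GRCm39) encodes a membrane protein that holds the sterol sensor SCAP in the endoplasmic reticulum. It measured 53.7, 80.9, 25.5, 49.9 and 30.8 CPM with vehicle and 205, 266, 122, 177 and 82.6 CPM with CORT. The groups did not overlap, although CORT replicate 5 exceeded the highest vehicle liver only narrowly. The log2 fold change was 1.82 (SE 0.36, adjusted p = 0.0344), and the call was lost without any of 7 livers (vehicle replicates 1, 3, 4 and 5 and CORT replicates 1, 2 and 4, adjusted p 0.055 to 0.125). Under isotype antibody its log2 fold change was 0.90 (adjusted p = 0.192).

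Ppp1r3c (ENSMUSG00000067279; chromosome 19, 36708523 to 36714070, minus strand, GRCm39) encodes a subunit that directs protein phosphatase 1 to glycogen. Its levels were 44.4, 41.6, 43.2, 40.1 and 80.2 CPM with vehicle against 219, 181, 145, 184 and 59.2 CPM with CORT. In both groups replicate 5 was the exception, the vehicle liver being high and the CORT liver low, so that the groups overlapped. This came to a log2 fold change of 1.66 (SE 0.35, adjusted p = 0.0470), and leaving out any liver but CORT replicate 5 took the adjusted p to between 0.0594 and 0.158.

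Promoters of Insig2 and Ppp1r3c are shown because they are the 2 among the best-described raised genes whose windows of 250 bases before to 50 after a RefSeq start hold one of 2 motifs searched on both strands, TGTTCT, the half-site bound by the glucocorticoid receptor, or CACGTG, the E-box bound by BMAL1 and CLOCK. The motif is in capitals; coordinates are those of GRCm38.p6, and Insig2 has 2 further RefSeq starts whose windows hold neither motif.
Insig2 (chr1:121332540-121332839, minus strand): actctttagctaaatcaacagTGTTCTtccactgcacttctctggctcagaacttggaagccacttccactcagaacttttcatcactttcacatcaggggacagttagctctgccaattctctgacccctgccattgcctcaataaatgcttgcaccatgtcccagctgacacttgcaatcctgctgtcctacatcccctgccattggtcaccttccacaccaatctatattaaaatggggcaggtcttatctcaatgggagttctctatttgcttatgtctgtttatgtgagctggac
Ppp1r3c (chr19:36736555-36736854, minus strand): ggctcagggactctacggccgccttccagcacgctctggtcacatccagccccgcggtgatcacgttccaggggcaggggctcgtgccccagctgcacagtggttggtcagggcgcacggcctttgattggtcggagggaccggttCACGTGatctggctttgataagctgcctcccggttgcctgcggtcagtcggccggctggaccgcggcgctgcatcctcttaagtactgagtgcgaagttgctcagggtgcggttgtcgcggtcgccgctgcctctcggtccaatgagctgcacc
TGTTCT was found in 2 of the 25 raised genes with a promoter entry (8.00%) and in 2 of 6 lowered ones (33.3%, Lpin2 and Tcf3), against 21.3% of 27025 promoters in all and 15.4% of the 11003 promoters of tested genes. CACGTG was found in 2 of 25 raised (8.00%) and 1 of 6 lowered genes (16.7%), against 8.09% of all promoters and 11.3% of those of tested genes. The shares among raised genes were thus at or below those of all promoters, and a match of letters is not a bound site.

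Besides G0s2, 3 members of the fatty acid and triglyceride list rose. Fabp2 is a fatty acid carrier best known from the intestine. It stood at 19.4 ± 5.25 CPM in vehicle and 59.3 ± 32.6 CPM in CORT livers (SD, n = 5 each). Its log2 fold change was 1.61 (SE 0.29, adjusted p = 0.0154). The groups overlapped, CORT replicate 5 (25.3 CPM) lying below the highest vehicle liver (27.3 CPM). Exons of 4933405D12Rik on the other strand cover 22.9% of the exonic length of Fabp2. Cd36, a fatty acid uptake receptor, measured 28.0, 38.4, 23.2, 21.9 and 22.4 CPM with vehicle and 66.3, 79.2, 46.7, 64.5 and 37.3 CPM with CORT. Its highest vehicle liver, replicate 2, exceeded the lowest CORT liver, replicate 5. Cd36 rose by a log2 fold change of 1.14 (SE 0.24, adjusted p = 0.0291), and under isotype antibody by 1.68 (adjusted p = 0.000291). Agpat2, which makes phosphatidic acid on the way to triglyceride, stood at 102 ± 25.0 CPM in vehicle and 234 ± 73.8 CPM in CORT livers (SD, n = 5 each; a log2 fold change of 1.20, SE 0.22, adjusted p = 0.0136); exons of Egfl7 on the other strand cover 24.2% of its exonic length, and without a stated strand setting those reads cannot be assigned. The Agpat2 groups overlapped too, CORT replicate 5 (114 CPM) lying below the highest vehicle liver (139 CPM). Under isotype antibody Agpat2 stood at 193 CPM with vehicle and 202 CPM with CORT (log2 fold change 0.07, adjusted p = 0.944). Fabp2 stood there at 42.3 and 55.8 CPM (log2 fold change 0.40, adjusted p = 0.579). Scp2, a sterol and lipid carrier of peroxisomes, passed the adjusted p below the fold limit, with 785 to 1032 CPM in vehicle and 1017 to 1936 CPM in CORT livers (log2 fold change 0.80, SE 0.17, adjusted p = 0.0391). Fabp2 and Agpat2 each lost the call without any of 5 livers (vehicle replicates 1, 3 and 5 and CORT replicates 1 and 2, adjusted p 0.0524 to 0.082), Cd36 without any of 7 (vehicle replicates 1, 3, 4 and 5 and CORT replicates 1, 2 and 4, up to 0.125) and Scp2 without any of 8 (all but vehicle replicate 2 and CORT replicate 5, up to 0.148).

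**Figure D2:**
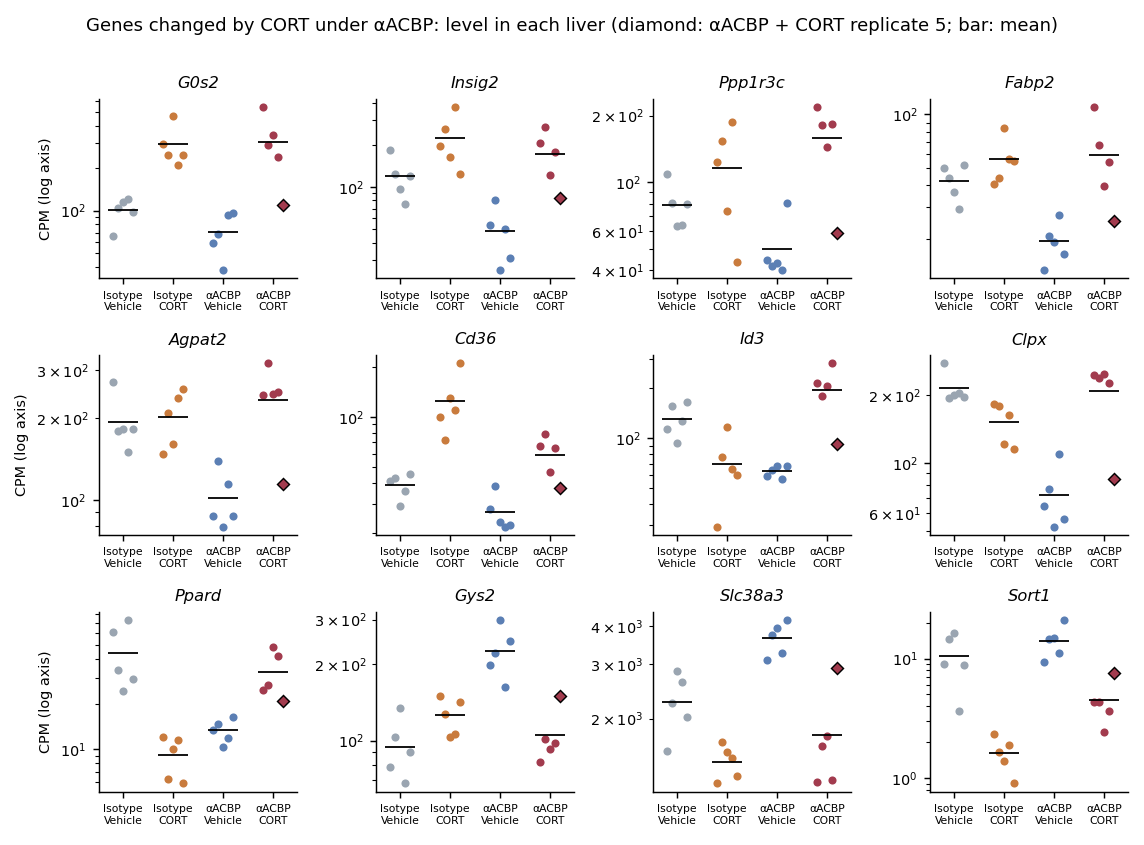
CPM per liver (log axis) of 12 genes changed by CORT under αACBP, in the 4 groups; points are livers and the diamond is αACBP + CORT replicate 5. In most panels the other 4 αACBP + CORT livers lie together, and the diamond is the one nearest the αACBP + Vehicle livers.

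Transcription factors and a mitochondrial protease were among the firmest rises. Id3, an inhibitor of DNA binding by basic helix-loop-helix factors, lay between 57.0 and 68.0 CPM in the 5 vehicle livers and measured 215, 179, 207, 282 and 91.9 CPM with CORT. No CORT liver came down to the vehicle range, replicate 5 being the closest. Id3 rose by a log2 fold change of 1.62 (SE 0.27, adjusted p = 0.0101; highest adjusted p with a liver left out 0.0457). Clpx, the chaperone subunit of the mitochondrial ClpXP protease, stood at 64.3, 76.5, 52.2, 110 and 56.3 CPM with vehicle and at 243, 236, 247, 225 and 84.7 CPM with CORT. CORT replicates 1 to 4 lay close together, and replicate 5 fell within the vehicle range. Its log2 fold change was 1.53 (SE 0.24, adjusted p = 0.00912, the highest with a liver left out being 0.0359). Nfil3, a repressor of D-box promoters that works against the clock output factors, measured 22.9, 28.5, 21.9, 36.9 and 45.6 CPM with vehicle and 82.8, 91.5, 119, 90.7 and 42.5 CPM with CORT. Only CORT replicate 5 fell within the vehicle range. Nfil3 rose by a log2 fold change of 1.45 (SE 0.24, adjusted p = 0.0101, and up to 0.04 with a liver left out). Under isotype antibody Nfil3 stood at 68.7 CPM with vehicle and 53.7 CPM with CORT.

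Ppard, the nuclear receptor PPARδ, measured 13.4, 14.8, 10.3, 11.8 and 16.3 CPM with vehicle and 24.9, 27.0, 48.3, 42.2 and 21.1 CPM with CORT under the antibody. The groups did not overlap. The log2 fold change was 1.29 (SE 0.29, adjusted p = 0.0443), a call that was lost without any liver other than CORT replicate 5 (adjusted p 0.0565 to 0.131). Under isotype antibody Ppard went the other way, from 44.4 to 9.14 CPM (log2 fold change -2.28, adjusted p = 0.000231), which made it the only one of the 34 called in the opposite direction there.

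Among genes of amino acid use, Gldc, a subunit of the glycine cleavage system, measured 54.1, 68.7, 44.5, 62.8 and 73.3 CPM with vehicle and 145, 197, 128, 153 and 76.2 CPM with CORT. The groups were separate, replicate 5 by a small margin. Gldc rose by a log2 fold change of 1.20 (SE 0.21, adjusted p = 0.0101) and lost the call without vehicle replicate 3 (0.0623) or CORT replicate 2 (0.0611). Ddc, aromatic amino acid decarboxylase, lay between 18.9 and 47.8 CPM in vehicle and between 49.3 and 72.9 CPM in CORT livers (1.16 on the log2 scale, adjusted p = 0.0119; lost without vehicle replicates 1, 3 or 5 or CORT replicate 1, 0.0504 to 0.0672). Atf5, a transcription factor of the stress response of mitochondria, rose by 1.05 (SE 0.20, adjusted p = 0.0184), from 170 to 249 CPM with vehicle to 223 to 548 CPM with CORT. It lost the call without vehicle replicates 1, 3 or 5 or CORT replicates 1 or 2 (0.0544 to 0.0954). Under isotype antibody Gldc, Ddc and Atf5 stood at 139, 74.1 and 332 CPM with vehicle and 129, 64.8 and 345 CPM with CORT. Their αACBP + Vehicle means (60.6, 27.7 and 196 CPM) lay below these, and their αACBP + CORT means were 140, 61.9 and 405 CPM. The 3 interactions did not pass (adjusted p 0.0525, 0.0504 and 0.135).

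The other named rises were Tubb2a, a β-tubulin (log2 fold change 1.41), Arl4a, a small GTPase (1.35), Hist1h1c, a linker histone (1.31), Ccng2, a cyclin linked to cell cycle arrest (1.22), and Sh3pxd2a, a scaffold protein (1.20). Their adjusted p ranged from 0.0184 for Ccng2 and Sh3pxd2a to 0.0478 for Tubb2a, which shares 89.2% of its exon bases with Bphl on the other strand. Each lost the call without any of at least 6 of the 10 livers, among them vehicle replicates 3 and 5 and CORT replicates 1 and 2 in all 5 genes (highest adjusted p 0.158). In the order given, their Isotype + Vehicle means were 121, 43.0, 28.9, 20.4 and 33.8 CPM. The Isotype + CORT means were 93.2, 52.5, 36.7, 22.5 and 43.8 CPM. The αACBP + Vehicle means were lower (41.8, 22.3, 18.8, 9.38 and 23.6 CPM), and the αACBP + CORT means were 111, 57.1, 46.8, 21.8 and 54.4 CPM. In 2 raised predicted genes, RP23-305G5.3, which lies opposite Arntl, and Gm43361, all 5 vehicle livers were at 0 and the CORT livers reached 1.55 and 2.47 CPM, so that no fold change is given.

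Gys2, the rate-limiting enzyme of liver glycogen synthesis (chromosome 6, 142368339 to 142418841, minus strand, GRCm39), measured 199, 222, 298, 163 and 247 CPM with vehicle and 82.3, 102, 93.1, 97.9 and 149 CPM with CORT. All CORT livers lay below all vehicle livers, replicate 5 being the highest of them. Gys2 fell by 1.11 on the log2 scale (SE 0.20, adjusted p = 0.0101; 0.0623 without vehicle replicate 3 and 0.0551 without CORT replicate 1). Under isotype antibody Gys2 stood at 94.8 CPM with vehicle and 126 CPM with CORT (log2 fold change 0.41, adjusted p = 0.307).

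Slc38a3, the SNAT3 glutamine transporter, measured 3106, 3749, 3950, 3255 and 4171 CPM with vehicle and 1246, 1626, 1760, 1268 and 2920 CPM with CORT. The groups were separate, with CORT replicate 5 between the other CORT livers and the vehicle livers. It fell by 1.05 on the log2 scale (SE 0.21, adjusted p = 0.0230), and the call was lost without any of 6 livers (vehicle replicates 3 and 5 and CORT replicates 1 to 4, up to 0.11). Sort1, the sorting receptor sortilin, which is known to bear on lipoprotein secretion, went from 14.1 ± 4.44 to 4.46 ± 1.93 CPM (SD, n = 5 each; log2 fold change -1.66, SE 0.36, adjusted p = 0.0420). Sort1 also fell under isotype antibody (log2 fold change -2.68, adjusted p = 0.000291); under αACBP the call was lost without any liver but vehicle replicate 4 and CORT replicate 5 (up to 0.136), and Gm12522 and Gm12523 on the other strand cover 26.9% of its exonic length.

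Gnat1, a transducin subunit whose exon bases lie opposite Gm57061 for 50.7% of their length, lay between 50.5 and 173 CPM in vehicle and between 12.7 and 53.0 CPM in CORT livers (-1.86 on the log2 scale, adjusted p = 0.0391, and 0.0511 to 0.12 without any of vehicle replicates 3 to 5 or CORT replicates 1 to 4). Exoc3l fell by 1.04 on the log2 scale (adjusted p = 0.0478, lost without any liver but vehicle replicate 2 and CORT replicate 5, up to 0.209). Lpin2, a phosphatidate phosphatase of triglyceride synthesis, passed the adjusted p but not the fold limit, with 213 to 395 CPM in vehicle and 160 to 226 CPM in CORT livers (log2 fold change -0.82, SE 0.19, adjusted p = 0.0478). Its call was lost without any liver but vehicle replicate 4 and CORT replicate 5, up to 0.189.

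The usual reporters of glucocorticoid exposure were examined next. Of 39 tested genes of a list induced by glucocorticoids, edgeR called 0, while at an unadjusted p of at most 0.05 there were 6 higher and 7 lower, DESeq2 called 1 higher and 2 lower, and voom 0 higher and 3 lower. Over all genes tested, 7.47% were higher and 5.23% lower at that unadjusted p, 1.24% higher and 0.684% lower by DESeq2's adjusted p, and 1.43% higher and 1.13% lower by that of voom, and the list counts below are to be read against these shares. The list's median log2 fold change was -0.11, beside 0.0067 over all genes, and turned positive with voom (0.15). Fkbp5, a receptor co-chaperone induced by glucocorticoids in most tissues, measured 86.7, 66.4, 36.8, 39.2 and 85.9 CPM with vehicle and 77.2, 55.0, 92.2, 100 and 59.2 CPM with CORT. The groups overlapped throughout, and its log2 fold change was 0.28 (SE 0.26, adjusted p = 0.72). Tsc22d3, the glucocorticoid-induced leucine zipper, had a log2 fold change of -0.46 (adjusted p = 0.654), and Nr3c1, the glucocorticoid receptor, of 0.21 (adjusted p = 0.67). Tsc22d3 was not raised under isotype antibody either (log2 fold change -0.67, adjusted p = 0.384). There the list's median was 0.17, and 5 of 39 genes were higher and 0 lower at the adjusted p. Over all genes 1.34% were higher and 1.86% lower in that arm.

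Sult1e1, the estrogen sulfotransferase, stood at 0.391, 0, 1.75, 0.165 and 1.88 CPM with vehicle and at 22.8, 19.9, 22.7, 1.72 and 0.108 CPM with CORT. CORT replicates 1 to 3 were high, and replicates 4 and 5 lay within the vehicle range. The log2 fold change of 3.98 had an adjusted p of 0.166, whereas under isotype antibody it was 6.32 (adjusted p = 0.0103). Lcn2, lipocalin 2, an acute-phase gene, varied from 24.8 to 292 CPM with vehicle and from 217 to 489 CPM with CORT (1.16 on the log2 scale, adjusted p = 0.457). Its means were 134 and 301 CPM. Under isotype antibody the Lcn2 means were 18.4 and 309 CPM (log2 fold change 4.07, adjusted p = 0.00358). The CORT means were thus alike in both arms and the vehicle means were not, and the interaction did not pass (adjusted p = 0.196). Dbi itself measured 648, 694, 647, 649 and 289 CPM with vehicle and 855, 858, 588, 839 and 676 CPM with CORT. The low vehicle value was that of replicate 5, and the log2 fold change was 0.38 (SE 0.21, adjusted p = 0.454). With 1 liver left out, that of Dbi ranged from 0.21 to 0.47.

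Steroid-handling genes were called in neither direction by edgeR (0 of 15 tested; 7 higher and 2 lower at an unadjusted p of at most 0.05, and 1 higher and 1 lower by each of DESeq2 and voom; median log2 fold change 0.38). Within it, Serpina6, the corticosteroid-binding globulin, had a log2 fold change of -0.98 (adjusted p = 0.0635) with no overlap between groups, and Hsd11b1, which regenerates active glucocorticoid, one of 0.64 (adjusted p = 0.111). Both passed without αACBP + CORT replicate 5, Serpina6 with a log2 fold change of -1.05 (adjusted p = 0.0325) and Hsd11b1 with 0.79 (adjusted p = 0.00866).

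Fatty acid oxidation genes leaned upwards. Of 31 tested, 30 had a positive log2 fold change, with a median of 0.45, and edgeR called 0, with 13 higher and 0 lower at an unadjusted p of at most 0.05 (7.47% and 5.23% over all genes), 6 higher by DESeq2 and 7 by voom. With other scalings 29 were positive. Ehhadh, the peroxisomal bifunctional enzyme, measured 104, 104, 108, 103 and 80.5 CPM with vehicle and 255, 173, 177, 225 and 130 CPM with CORT. The groups did not overlap, and its log2 fold change was 0.94 (adjusted p = 0.0635; 1.05 and 0.0161 without CORT replicate 5). Cyp4a10, an ω-hydroxylase induced through PPARα, measured 246, 350, 129, 259 and 106 CPM with vehicle and 803, 458, 381, 463 and 363 CPM with CORT. The groups did not overlap (1.18 on the log2 scale, adjusted p = 0.071; 1.27 and 0.031 without CORT replicate 5). Under isotype antibody the list's median was 0.66 with 10 genes higher at the adjusted p, where 1.34% of all genes were higher. Cyp4a10 rose there by a log2 fold change of 2.14 (adjusted p = 0.000294).

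In fatty acid and triglyceride synthesis and storage, 4 of 48 tested genes rose and 1 fell at the adjusted p (G0s2, Fabp2, Agpat2 and Cd36 against Lpin2). At an unadjusted p of at most 0.05, 11 were higher and 7 lower (all genes 7.47% and 5.23%), with 8 and 1 by DESeq2, 9 and 2 by voom, and 8 and 1 by edgeR without CORT replicate 5. As many members were positive as negative, 24 each, and the median log2 fold change was 0.00. In gluconeogenesis and glucose handling 1 of 27 rose and 1 fell, Ppp1r3c and Gys2, both of glycogen rather than of gluconeogenesis (4 higher and 3 lower at an unadjusted p of at most 0.05, 1 and 1 by DESeq2, 2 and 2 by voom; median 0.14). In cholesterol and bile acid metabolism 1 of 30 rose, Insig2, and 0 fell (5 higher and 5 lower at an unadjusted p of at most 0.05, 1 and 1 by DESeq2, 2 and 2 by voom), with a median of -0.24. Amino acid catabolism and the urea cycle had 0 of 34 called by edgeR, DESeq2 and voom (4 higher and 1 lower at an unadjusted p of at most 0.05; median 0.12).

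The lists of chaperones, growth hormone-dependent genes and drug metabolism had 0 called by edgeR among 27, 28 and 35 tested. At an unadjusted p of at most 0.05, where 7.47% of all genes were higher and 5.23% lower, 8 chaperones were higher and 1 lower (DESeq2 0; voom 1 lower), with 25 of 27 positive and a median log2 fold change of 0.42. For growth hormone-dependent genes 5 were higher and 1 lower (DESeq2 2 higher; voom 2 higher and 1 lower; median 0.32), among them Mup20, a major urinary protein, with a log2 fold change of 2.13 and no overlap (adjusted p = 0.0559; 2.36 and 0.00397 without CORT replicate 5). For drug metabolism 9 were higher and 3 lower (DESeq2 3 higher and 1 lower; voom 1 higher and 3 lower; median 0.12), among them Cyp2b10, a cytochrome P450 induced through the receptor CAR, with 2.50 and no overlap (adjusted p = 0.0681; 2.65 and 0.0327 without CORT replicate 5). The integrated stress response list had 1 of 17 called, Atf5, with a median of -0.10, and proliferation genes 0 of 18 (1 lower at an unadjusted p of at most 0.05, 0 by DESeq2 and 1 lower by voom; median -0.41).

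**Figure D3:**
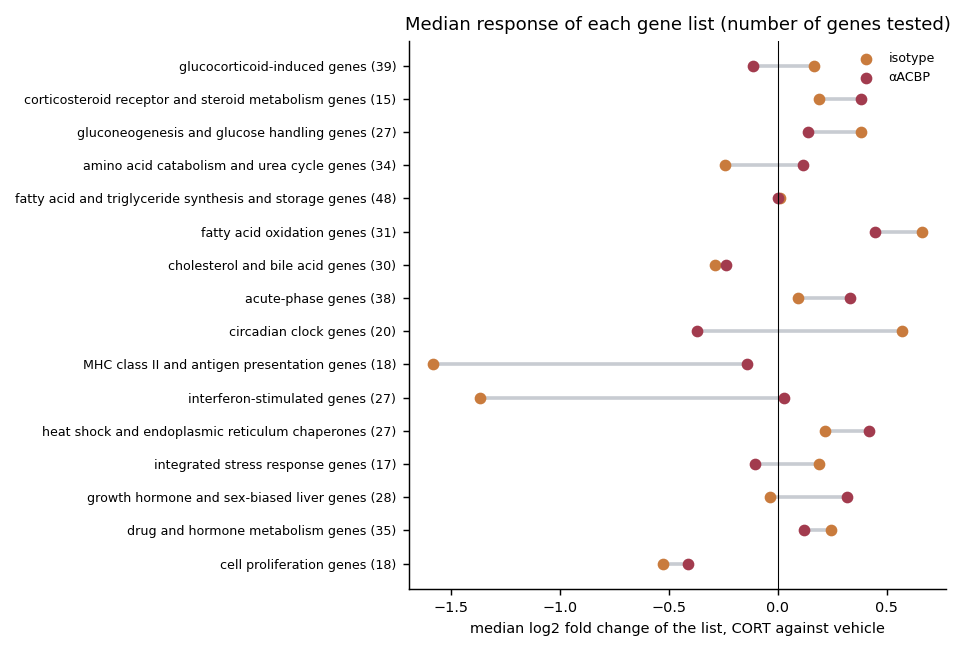
Median log2 fold change (CORT over vehicle) of the tested genes of each list under αACBP and under isotype antibody. Under αACBP fatty acid oxidation (0.45) and chaperones (0.42) had the highest of the medians given in the text. The MHC class II and antigen presentation list lay at -0.14 and interferon-stimulated genes at 0.03, against -1.58 and -1.36 under isotype antibody.

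Immune and acute-phase lists held no edgeR call under the antibody, and their counts at an unadjusted p stand beside 7.47% higher and 5.23% lower over all genes. For MHC class II and antigen presentation edgeR called 0 of 18 (1 higher and 1 lower at an unadjusted p of at most 0.05; DESeq2 1 higher; voom 1 lower), and the median log2 fold change was -0.14. For interferon-stimulated genes it called 0 of 27 (2 higher at an unadjusted p of at most 0.05; 0 by DESeq2 and voom), with a median of 0.03. For acute-phase genes it called 0 of 38 (8 higher and 6 lower at an unadjusted p of at most 0.05; DESeq2 2 lower; voom 1 higher and 2 lower), with a median of 0.33. Under isotype antibody 10 genes of the MHC class II and antigen presentation list and 14 interferon-stimulated genes were lower at the adjusted p. Of all genes, 1.34% were higher and 1.86% lower there. Mt2, a metallothionein induced by zinc and glucocorticoids, measured 1347, 999, 1023, 1105 and 1014 CPM with vehicle and 225, 385, 298, 135 and 908 CPM with CORT. All CORT livers were lower, replicate 5 narrowly so, and the log2 fold change was -1.49 (adjusted p = 0.103; -2.07 and 0.000355 without CORT replicate 5); Gm45774 on the other strand covers 82.4% of its exonic length.

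The ranges of the marker sums overlapped between CORT and vehicle livers under αACBP for each immune cell type given here. B and plasma cell markers summed to 44.3 to 117 CPM with vehicle and 18.2 to 78.5 CPM with CORT, and all 13 had a negative log2 fold change (median -0.90), of which edgeR called 0 (4 lower at an unadjusted p of at most 0.05; DESeq2 1 lower; voom 3 lower). The corresponding sums under isotype antibody were 83.0 to 119 and 13 to 47.7 CPM (median log2 fold change -2.14, 3 called lower). Kupffer cell and macrophage markers summed to 651 to 1085 CPM with vehicle and 656 to 953 CPM with CORT (0 of 15 called by edgeR and 0 at an unadjusted p of at most 0.05; median 0.14), against 551 to 1139 and 178 to 507 CPM under isotype antibody (median -1.20, 8 lower). Dendritic cell markers, all 8 with a negative log2 fold change (median -1.11; isotype -1.41), summed to 29.0 to 63.7 CPM in vehicle and 22.4 to 34.5 CPM in CORT livers, and edgeR, DESeq2 and voom called 0 of them (1 lower at an unadjusted p of at most 0.05). T and NK cell markers had a median of -0.46, with 37.3 to 60.5 CPM in vehicle and 32.3 to 46.5 CPM in CORT livers. In bulk liver, fewer cells of a type and less RNA per cell cannot be told apart, and the difference between the antibody arms in these sums was not tested.

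Clock genes set αACBP + CORT replicate 5 apart from the other CORT livers. The liver clock pairs the activators BMAL1 (encoded by Arntl), CLOCK and NPAS2 with their targets: the PER proteins, the repressors REV-ERBα and REV-ERBβ (Nr1d1 and Nr1d2), and the output factors DBP and TEF. The clock genes of this paragraph and the next, other than Nfil3 and Per1, were chosen after their values were seen. Dbp measured 215, 236, 611, 151 and 361 CPM with vehicle and 9.61, 6.44, 7.98, 6.98 and 195 CPM with CORT. CORT replicates 1 to 4 were far below every vehicle liver, and replicate 5 lay within the vehicle range. The log2 fold change was -2.80 (adjusted p = 0.236) with all livers and -5.34 (adjusted p = 0.00155) without CORT replicate 5. Tef went from 404, 385, 475, 293 and 547 CPM to 62.7, 62.9, 114, 86.8 and 328 CPM (log2 fold change -1.68, adjusted p = 0.0767; -2.36 and 3.93e-05 without replicate 5). Nr1d1 went from 164, 217, 406, 240 and 265 CPM to 32.0, 61.5, 54.8, 27.1 and 264 CPM (log2 fold change -1.56, adjusted p = 0.271; -2.56 and 0.00709 without replicate 5); exons of Thra and Gm31862 on the other strand cover 52.8% of its exonic length. In each of these 3 genes replicate 5 was at a vehicle-like level.

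Arntl moved in the opposite direction, from 1.90, 6.91, 4.47, 12.0 and 13.2 CPM with vehicle to 20.3, 27.2, 35.5, 27.8 and 10.6 CPM with CORT. CORT replicates 1 to 4 were above every vehicle liver and replicate 5 was not. Its log2 fold change was 1.65 (adjusted p = 0.101; 1.85 and 0.024 without replicate 5). Clock had a log2 fold change of 0.89 without replicate 5 (adjusted p = 0.0322) and Npas2 of 2.37 (adjusted p = 0.0518). On the target side, Per3 had -3.76 (adjusted p = 0.0139), Nr1d2 -1.82 (adjusted p = 0.00193) and Ciart -2.60 (adjusted p = 0.0203) without replicate 5, and none of these passed with all 10 livers (0.155, 0.141 and 0.0767). Per1, which has both clock and glucocorticoid control, had 7.12, 3.99, 30.9, 10.8 and 63.1 CPM with CORT against 38.4 to 238 CPM with vehicle (log2 fold change -2.30, adjusted p = 0.221, and -3.11, adjusted p = 0.0697, without replicate 5). Over the whole list of 20 clock genes edgeR called 1 with all livers, Nfil3 (6 higher and 10 lower at an unadjusted p of at most 0.05, 3 and 7 by DESeq2 and 3 and 8 by voom); the median log2 fold change was -0.37 under αACBP and 0.57 under isotype antibody. Dbp stood at 5.42 to 23.5 CPM in the Isotype + Vehicle livers, nearer to CORT replicates 1 to 4 than to the vehicle livers under αACBP. Its log2 fold change with CORT under isotype antibody was 2.10 and did not pass (adjusted p = 0.306). The labels give a 12-h light and dark cycle but not the hour at which each liver was taken, and the part of the time of collection or of clock phase in these values and in the other genes named here was not tested.

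**Figure D4:**
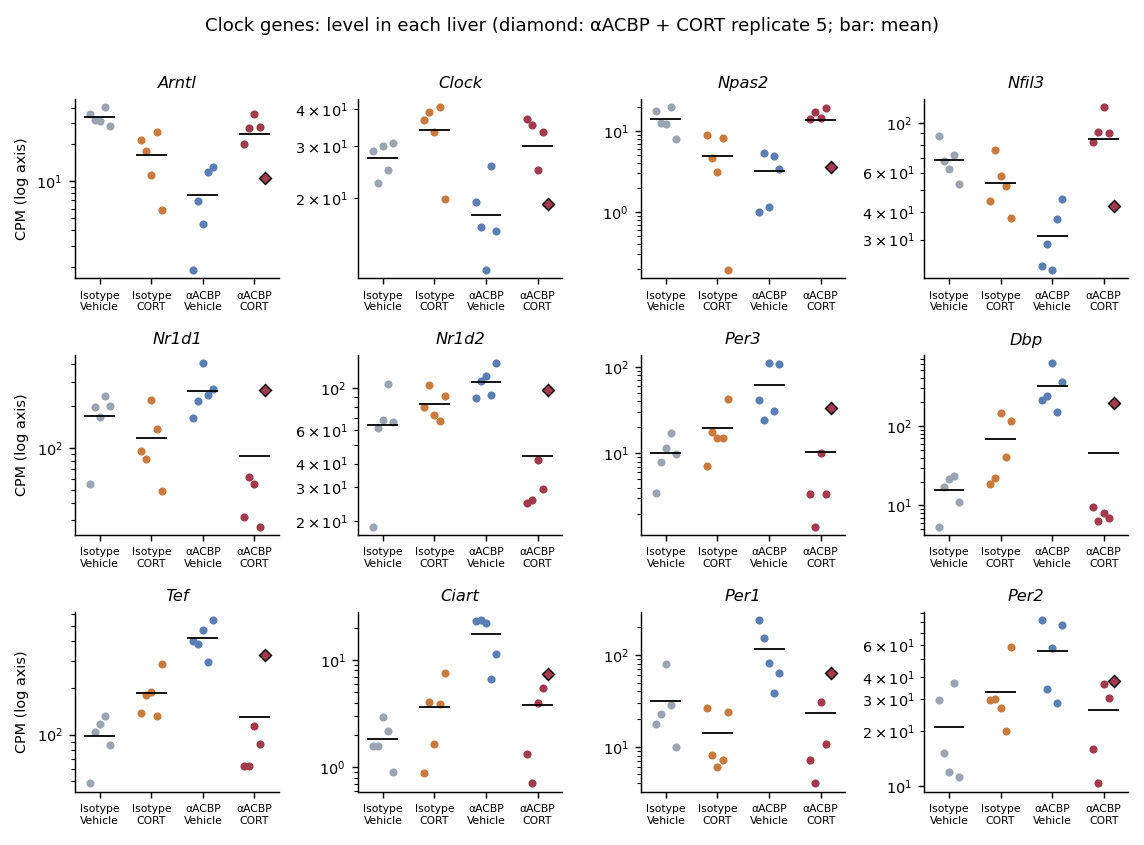
CPM per liver (log axis) of 12 clock genes in the 4 groups; points are livers and the diamond is αACBP + CORT replicate 5. For Dbp, Tef and Nr1d1 the 4 other αACBP + CORT livers lie below all αACBP + Vehicle livers, at 6.44 to 9.61 CPM for Dbp, while the diamond lies among the vehicle livers.

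Leaving out αACBP + CORT replicate 5 also brought past the adjusted p a set of lipid genes, chosen here after their values were seen from the 260 that then passed it (168 higher, 1.02% of those tested, and 92 lower, 0.559%). Plin2 and Plin5, coat proteins of lipid droplets, had log2 fold changes of 1.46 (adjusted p = 0.00471) and 1.43 (adjusted p = 0.00212). Apoa4, an apolipoprotein of triglyceride-rich particles of which 69.8% lies opposite Gm47528 and Gm10680, had 2.13 (adjusted p = 0.00812), Mttp, which loads lipid onto such particles, 1.00 (adjusted p = 0.0477), and Cyp4a14, a second ω-hydroxylase, 2.09 (adjusted p = 0.0251). Among lowered genes were Trib3, a stress-induced pseudokinase (-1.59, adjusted p = 0.00742), Cyp2a5, a cytochrome P450 of which 30.9% lies opposite Gm71933 and whose reads can be shared with its near copy Cyp2a4 (-1.94, adjusted p = 0.000741), Mt1 (-1.42, adjusted p = 0.0082), Thra, a thyroid hormone receptor gene of which 21.4% lies opposite Nr1d1 (-2.36, adjusted p = 0.00361), and Fabp5, a fatty acid carrier (-2.34, adjusted p = 7.78e-05). With all 10 livers none of these passed, and the liver left out was the one with the highest mitochondrial share among the CORT livers, whose part in the result was not tested.

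The response under αACBP was then set beside that under isotype antibody, which shares no liver with it. Across the 16071 genes the log2 fold changes of both arms correlated weakly (Pearson 0.162, Spearman 0.178, across genes that are not independent), and the median absolute log2 fold change was 0.308 under αACBP and 0.312 under isotype antibody. Of the 34 genes, 23 had the same sign under isotype antibody and 7 passed the adjusted p there in the same direction, among them G0s2, Cd36, Sort1 and Gnat1. Over all genes tested, 1.34% were higher and 1.86% lower at the adjusted p under isotype antibody. The share of all genes with the same sign in both arms was not counted, so the 23 cannot be set against it.

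**Figure D5:**
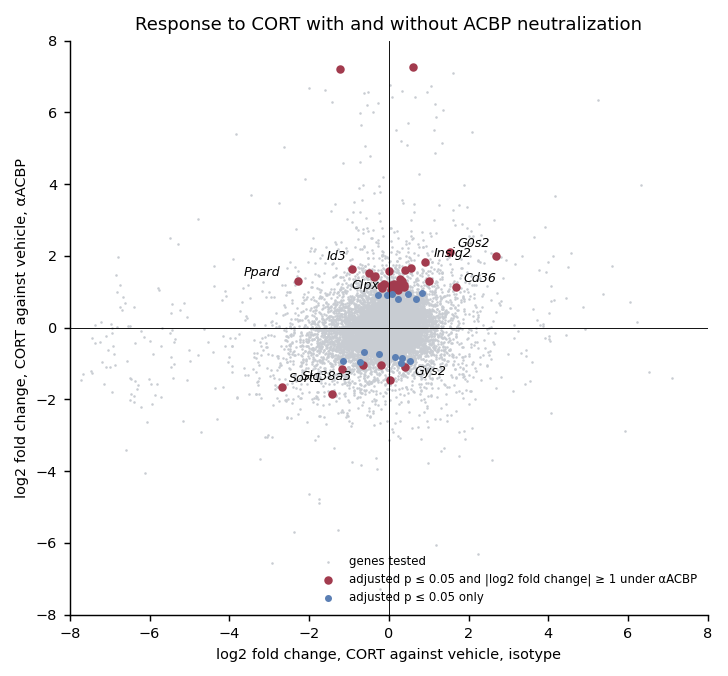
Log2 fold change of CORT over vehicle under isotype antibody (x axis) and under αACBP (y axis) for the genes tested, with the 34 genes changed under αACBP in red and those that passed the adjusted p alone in blue. Red genes lie on both sides of 0 on the x axis, 23 of the 34 with the same sign in both arms. The share with the same sign over all genes was not counted. The 2 at the top are those with every αACBP + Vehicle liver at 0, whose plotted height depends on the prior count.

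The difference between the responses was itself tested as an interaction, which called 23 genes (0.143% of those tested), 16 with the more positive response under αACBP. Of the 34 genes, 6 were among them. The interaction contains the αACBP contrast by which the 34 were chosen, so this overlap is partly built in. Ppard differed most firmly, with an interaction of 3.57 on the log2 scale (adjusted p = 4.58e-05), followed by Id3 with 2.54 (adjusted p = 0.00281), where isotype levels went from 131 to 69.6 CPM, and Clpx with 2.02 (adjusted p = 0.00521), where they went from 213 to 152 CPM. These 3 interactions passed whichever of the 20 livers was left out. For Ppard, Id3 and Clpx the αACBP + Vehicle mean (13.3, 63.3 and 71.8 CPM) lay below the Isotype + Vehicle mean (44.4, 131 and 213 CPM), and the αACBP + CORT mean was 32.7, 195 and 207 CPM. Nfil3 (1.80) and Gys2 (-1.52) also differed, both at an adjusted p of 0.0162. Fkbp5, which rose under isotype antibody from 39.3 to 128 CPM, had an interaction of -1.42 that did not pass (adjusted p = 0.0935).

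Genes with an interaction but no call under αACBP included H2-Ab1, an MHC class II chain, with 34.2 CPM in vehicle and 28.5 CPM in CORT livers under αACBP against 46.4 and 8.02 CPM under isotype antibody (interaction 2.27, adjusted p = 0.0449). Ifit3, an interferon-induced gene, had 24.9 and 28.9 CPM under αACBP against 31.0 and 7.58 CPM under isotype antibody (interaction 2.24, adjusted p = 0.0312). Ifi27l2a, a further interferon-induced gene, had an interaction of 1.92 and Id1, a relative of Id3, one of 2.05, each at an adjusted p of 0.0449. These 4 calls were less firm than those of Ppard, Id3 and Clpx, being lost without any of 8 to 13 of the 20 livers, in each case Isotype + Vehicle replicates 2 and 5, Isotype + CORT replicates 1 and 2, αACBP + Vehicle replicates 1 and 5 and αACBP + CORT replicates 2 and 3 among them (highest adjusted p 0.0987).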

How the data were processed

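Liver RNA from 20 mice was sequenced in pairs of 150-base reads. The authors aligned the reads with HISAT2 2.2.1 and deposited raw read counts per gene made with HTSeq-count 2.0.2, in union mode with reads of several features kept; the methods name GRCm39 and the submitters' processing notes mm10. The annotation release and strand setting are not given in the sources used here, so overlapping and antisense genes can share reads. Rows for unassigned reads were left out.

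From the deposited counts, genes were kept with edgeR's filterByExpr, scaled by TMM and fitted in 1 model of the 4 groups (edgeR 4.0.16, R 4.3.3, robust quasi-likelihood). CPM are TMM-scaled. The call was a Benjamini-Hochberg adjusted p of at most 0.05 over all genes tested with a log2 fold change of at least 1 in size; where stated, the adjusted p alone was used. The scripts were tested on simulated data. Alternatives were another scaling, other filters, DESeq2 1.42.0, limma 3.58.1 voom with quality weights, only the 10 livers, a replicate block, and each liver left out.

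Named genes were the 15 largest rises and 5 falls among changed genes with a mean of at least 1 CPM. The 10 largest interactions, 7 reference genes and members of each list were also named. From each list these were up to 6 members past the adjusted p, or else the 2 of lowest p. Genes whose names have the form of predicted genes or pseudogenes were left out of the rises, falls and interactions. Ddc and Scp2 were added by hand outside this rule. The comparison, genes and lists were chosen with earlier results of these data known. Replicates are separate mice by the labels. Replicate numbers did not pair the livers. Gene positions are from GENCODE M39 (GRCm39; 15804 of 16071 genes matched) and promoters from RefSeq (GRCm38.p6).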

Additional observations from a re-analysis of the deposited data

Results flagged for a closer look

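Of 120 groups of 5 livers checked, 12 held a liver with a gap to the others beyond Dixon's 95% limit, where chance flags about 1 in 20. The αACBP + CORT replicate 5 liver was the one apart for Clpx (84.7 CPM against 225 to 247 in the others) and Gys2 (149 against 82.3 to 102). Replicate 5 of αACBP + Vehicle was apart for Dbi (289 CPM against 647 to 694), Ehhadh (80.5 against 103 to 108), Mki67 (23.5 against 2.68 to 6.11) and Ppp1r3c (80.2 against 40.1 to 44.4). The others were spread over 6 livers: Cyp4a10 in αACBP + CORT replicate 1 (803 CPM against 363 to 463), Lcn2 in replicate 2 (489 against 217 to 290) and Ankrd37 in replicate 3 (0.459 against 1.06 to 1.16) of that group, and Ddc in αACBP + Vehicle replicate 4 (47.8 against 18.9 to 27.1), H2-Ab1 in replicate 3 (64.7 against 20.8 to 33.4) and H2-Ob in replicate 2 (2.25 against 9.75 to 10.7) of that group.

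The CORT response differed between the antibody arms by the interaction test in 23 genes. Apart from RP23-305G5.3, a predicted gene with all αACBP + Vehicle livers at 0 whose fitted difference is no bound, the 10 largest differences, as log2 fold change under αACBP minus that under isotype antibody, were Gli1 with 7.43, Ankrd37 with -4.40, Loxl4 with 3.74, Ppard with 3.57, Id3 with 2.54, H2-Ab1 with 2.27, Ifit3 with 2.24, Id1 with 2.05, Clpx with 2.02 and Ifi27l2a with 1.92. All Isotype + CORT livers were at 0 for Gli1, so its value depends on the prior count and is no bound; under αACBP it stood at 1.34 CPM with vehicle and 1.40 CPM with CORT. The calls of Gli1, Ankrd37 and Loxl4 were lost without any of 10 to 13 of the 20 livers (adjusted p 0.0514 to 0.0888).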

How the results depend on the processing

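The count of 34 genes changed by CORT under αACBP became 112 with DESeq2's Wald test, 155 with voom and quality weights, 395 at an unadjusted p and 104 without both αACBP replicate 5 livers (added after seeing the data). It stayed within 1.5 times with the other settings (30 with DESeq2 size factors, 34 and 36 with other filters, 30 with only the 10 livers, 49 without a fold limit), and ranged from 5 to 153 with 1 liver left out. The split turned from 27 higher and 7 lower to 66 and 46 with DESeq2 and 66 and 89 with voom, at all-gene medians of -0.019 and 0.047; 32 and 33 of the 34 genes were shared. The 23 interactions became 35 with DESeq2 size factors, 53 with any gene counted, 60 with at least 10 counts in every liver, 187 with DESeq2, 49 with voom, 791 at an unadjusted p and 63 without both replicate 5 livers, and ranged from 6 to 101 with 1 liver left out. The mean total count difference of -189243 ranged from -468738 to 238389, turning positive without αACBP + Vehicle replicate 2 or αACBP + CORT replicate 1. For single named genes, the αACBP response kept its side of the threshold in 728 recomputed values, lost it in 159 and gained it in 47, and interactions kept it in 177 and lost it in 90; no direction turned. Same-numbered livers deviated together by correlations of -0.036 to 0.123, so the numbers do not pair them; a replicate block gave 36 genes (26 shared with the 34) and 20 interactions. With 5 livers a group and 15570200 to 18742800 counts each, genes under about 0.193 CPM before TMM scaling rest on 3 counts or fewer.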
